A study of Mus musculus with 21 samples.

Results

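RGS proteins (regulators of G protein signalling) end signals from G protein-coupled receptors. They speed the hydrolysis of GTP by G protein alpha subunits of the Gi/o and Gq classes, so that a receptor's signal is shorter where more of a fitting RGS protein is present. The family is split by sequence, and the members described here cover 4 groups: the small R4 proteins (Rgs2, Rgs3, Rgs4, Rgs8 and Rgs16), the larger R7 proteins that need Gnb5 for their stability (Rgs6, Rgs7 and Rgs9), Rgs10 of the R12 group and Rgs17 of the RZ group. AGRP neurons of the arcuate nucleus drive feeding, POMC neurons restrain it, and both receive many inputs through receptors of this kind.

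The 10 genes were listed by symbol, out of 35266 genes and 21 genes with a numbered Rgs symbol in the tables. Rgs6 was chosen by its measured values, high in fed AGRP neurons against POMC neurons and lower in AGRP neurons after food deprivation, so its values are given as a description and without a test, in every comparison, since each holds at least 1 of these groups. The other 9 were named with earlier results of these data known. All 10 passed the filter on low counts, which asked for a CPM (gene counts scaled to a common library total) over 1 in at least 3 libraries.

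Each library held RNA of 44 to 214 fluorescent arcuate nucleus neurons, picked manually from 1 male mouse aged 46 to 56 days on a C57BL/6J background. AGRP neurons came from NPY-hrGFP mice, in which a fluorescent protein follows the Npy gene, and POMC neurons from Pomc-GFP mice, in which it follows Pomc. There were 5 fed and 6 food-deprived (FD) AGRP libraries, and 5 fed and 5 FD POMC libraries. All mice were moved to fresh cages beforehand, and FD mice had water but no food for 24 h. A pooled library cannot tell fewer expressing cells from less RNA per cell.

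Libraries held 9822298 to 37663979 counts on genes, with a median of 19189780, and 3 counts, taken as the floor, came to 0.0797 to 0.305 CPM. Floors cover counting error alone, since amplified reads without molecular identifiers are not independent molecules. Agrp and Npy summed to 12060 to 68920 TPM (a deposited level per transcript length, scaled to a common total) in AGRP libraries and to 5.45 to 226 TPM in POMC libraries. Pomc lay at 7162 to 23060 TPM in POMC and at 7.35 to 69.7 TPM in AGRP libraries. The 4 astrocyte markers summed to at most 14.1 TPM, the 4 endothelial and pericyte markers to at most 5.12 TPM, and the 4 microglia markers to at most 12.5 TPM. Among the microglia markers C1qa was at 0 in all 21 libraries, while Aif1 reached 10.7 TPM. Of the astrocyte markers Aldh1l1 passed with deprivation in AGRP neurons, at 0 to 0.0450 TPM in fed and 0.217 to 5.15 TPM in FD libraries (log2 fold change 5.91 ± 1.77 (SE), adjusted p = 0.0284 in edgeR), and the summed astrocyte markers lay at 1.67 to 7.51 and 0.468 to 14.1 TPM there. Their part in the AGRP results was not tested. The 4 oligodendrocyte markers summed to 16.0 to 47.8 TPM. Spike-in volumes differed between libraries, and in POMC neurons the 10 µl volume was used only for FD mice and the volume set by cell number only for fed mice, so these sets and the diet cannot be told apart there.

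Of the 10 genes 5 lie on chromosome 1. In mm10 coordinates, Rgs2 spans chr1:143999338-144004161 (minus strand), Rgs8 chr1:153653025-153700323 (plus), Rgs16 chr1:153740349-153745468 (plus), Rgs4 chr1:169741477-169747642 (minus) and Rgs7 chr1:175059087-175492500 (minus). Rgs8 and Rgs16 follow each other on the same strand with 40025 bases between the end of the first and the start of the second. The others are Rgs3 (chr4:62559847-62703018, plus), Rgs10 (chr7:128373621-128418173, minus), Rgs17 (chr10:5825663-5922400, minus), Rgs9 (chr11:109225355-109298129, minus) and Rgs6 (chr12:82616925-83162056, plus). Reads were counted without strand, and 3 members share exonic bases with an annotated antisense transcript: Rgs6 with Gm29530 over 77 bases, Rgs8 with Gm29529 over 70 and Rgs16 with Gm28513 over 236. These antisense genes had at most 35, 11 and 3 counts in any library.

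The 4 members on which the comparisons turn are shown with the 250 bases before their RefSeq start (GRCm38.p6), read 5′ to 3′ on the gene's strand. Capitals mark the cAMP response element half-site TGACG, the E-box CACGTG, the TATA box TATAAA and the GC box GGGCGG, each searched on both strands. The windows are chr1:169747643-169747892 for Rgs4, chr1:144004150-144004399 for Rgs2, chr1:153740103-153740352 for Rgs16 and chr12:82617249-82617498 for Rgs6.
Rgs4: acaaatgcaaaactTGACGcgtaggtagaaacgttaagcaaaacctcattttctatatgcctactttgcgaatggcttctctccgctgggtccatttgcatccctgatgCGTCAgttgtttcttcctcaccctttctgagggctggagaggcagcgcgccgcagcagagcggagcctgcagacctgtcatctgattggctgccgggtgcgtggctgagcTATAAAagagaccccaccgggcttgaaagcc
Rgs2: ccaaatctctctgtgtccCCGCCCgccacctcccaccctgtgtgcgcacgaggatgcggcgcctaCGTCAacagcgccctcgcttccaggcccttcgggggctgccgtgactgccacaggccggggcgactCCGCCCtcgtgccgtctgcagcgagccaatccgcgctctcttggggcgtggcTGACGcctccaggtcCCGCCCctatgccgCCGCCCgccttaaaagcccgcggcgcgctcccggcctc
Rgs16: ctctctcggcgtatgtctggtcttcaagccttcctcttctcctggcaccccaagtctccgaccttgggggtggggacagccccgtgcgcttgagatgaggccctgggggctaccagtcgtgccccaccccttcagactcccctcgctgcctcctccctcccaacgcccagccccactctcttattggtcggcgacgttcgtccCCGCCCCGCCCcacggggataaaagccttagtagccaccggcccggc
Rgs6: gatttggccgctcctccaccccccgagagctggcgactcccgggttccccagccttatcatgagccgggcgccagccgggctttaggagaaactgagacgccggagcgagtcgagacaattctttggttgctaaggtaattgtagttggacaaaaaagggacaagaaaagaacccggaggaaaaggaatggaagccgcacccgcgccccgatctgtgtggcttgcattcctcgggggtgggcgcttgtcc
In the Rgs4 window, TGACG began 236 bases before the start, its reverse complement 141 bases before it, and TATAAA 31 bases before it. The Rgs2 window held TGACG once on each strand and 4 GC boxes, at a GC content of 72.4% against 53.6% for Rgs4. Both GC boxes of Rgs16 share a base, and the Rgs6 window held no match to these motifs. Across all 13 RefSeq start sites of the 10 genes, 3 windows (those of Rgs2, Rgs4 and 1 of Rgs8) held the half-site, as did 17.9% of 27025 mouse promoter windows of the same length. TATAAA was in 4 of the 13 windows (13% of all), GGGCGG in 6 (32.9% of all) and CACGTG in 1, that of Rgs7 (6.05% of all). Of 2 more motifs searched, the glucocorticoid half-site AGAACA was in 3 windows (16.2% of all) and the AP-1 site TGANTCA in 1 (6.87%). A match is a stretch of letters and not evidence of binding.

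The same 5 genes had the highest mean levels in both cell types of fed mice. On the TPM scale, where levels of different genes can be set side by side, fed AGRP neurons held Rgs2 at 836 ± 34.3 (SD, n = 5), Rgs4 at 329 ± 120, Rgs17 at 232 ± 27.7, Rgs7 at 111 ± 31.2 and Rgs9 at 77.7 ± 18.7. The other 5 genes had means of 1.17 to 10.5 TPM there. Fed POMC neurons had another order, with Rgs4 at 342 ± 80.4 (SD, n = 5), Rgs17 at 149 ± 28.4, Rgs2 at 109 ± 23.5, Rgs7 at 63.5 ± 4.32 and Rgs9 at 32.3 ± 7.37 TPM. In fed AGRP neurons the values of Rgs2 and Rgs4 did not overlap, nor did those of Rgs17 and Rgs7, while Rgs4 and Rgs17 overlapped and so did Rgs7 and Rgs9. In fed POMC neurons Rgs4 lay above Rgs17 in all 5 libraries without overlap, whereas the ranges of Rgs17 and Rgs2 overlapped. After food deprivation, 2 of 9 neighbouring pairs in the order were free of overlap in AGRP neurons and 2 of 9 in POMC neurons, against 4 and 5 in the fed groups.

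**Figure D1:**
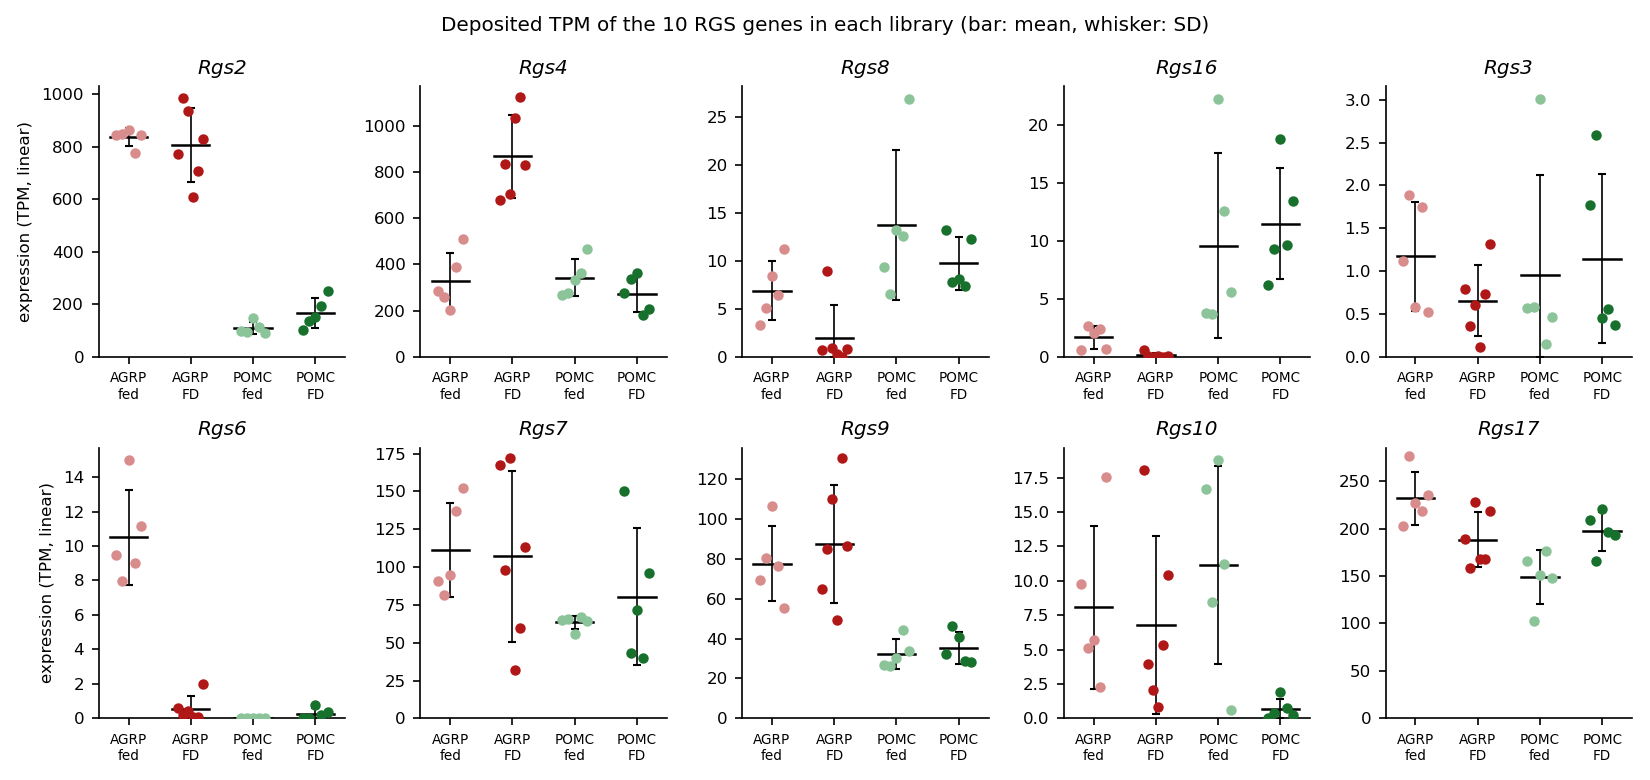
Deposited expression of the 10 RGS genes (TPM, linear axes that differ between panels) in each library of the 4 groups, with the mean as a bar and the SD as a whisker. The 6 FD AGRP libraries lie at 677 to 1125 TPM of Rgs4, above the 5 fed AGRP libraries at 204 to 508 TPM, and both AGRP groups lie above both POMC groups for Rgs2 and Rgs9.

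Summed over the 10 genes, RGS transcripts came to 1614 ± 131 TPM in fed AGRP neurons (n = 5) and 2067.5 ± 140 TPM in FD AGRP neurons (n = 6), and these ranges, 1518 to 1838 and 1891 to 2196 TPM, did not overlap. The mean of Rgs4 alone was 329 TPM fed and 867 TPM FD there, and that of Rgs9 77.7 and 87.7 TPM. Each of the other members had a lower mean TPM when FD, so the higher sum is the Rgs4 rise and no separate result. POMC neurons held 730 ± 105 TPM when fed and 776 ± 81.0 TPM when FD (n = 5 each). In AGRP neurons Rgs2 made up 51.8% of the summed mean TPM in the fed state and 39.1% after deprivation, and Rgs4 20.4% and 41.9%. The ratio of Rgs4 to Rgs2 was 0.396 ± 0.150 in fed and 1.13 ± 0.409 in FD AGRP libraries, 0.237 to 0.601 against 0.751 to 1.69, without overlap. Rgs4 was above Rgs2 in 0 of 5 fed and 2 of 6 FD AGRP libraries, so its higher mean in the FD group rests on those 2. In POMC neurons the ratio was 3.27 ± 1.16 when fed and 1.85 ± 0.904 when FD, and Rgs4 was above Rgs2 in 5 of 5 and 3 of 5 libraries.

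**Figure D2:**
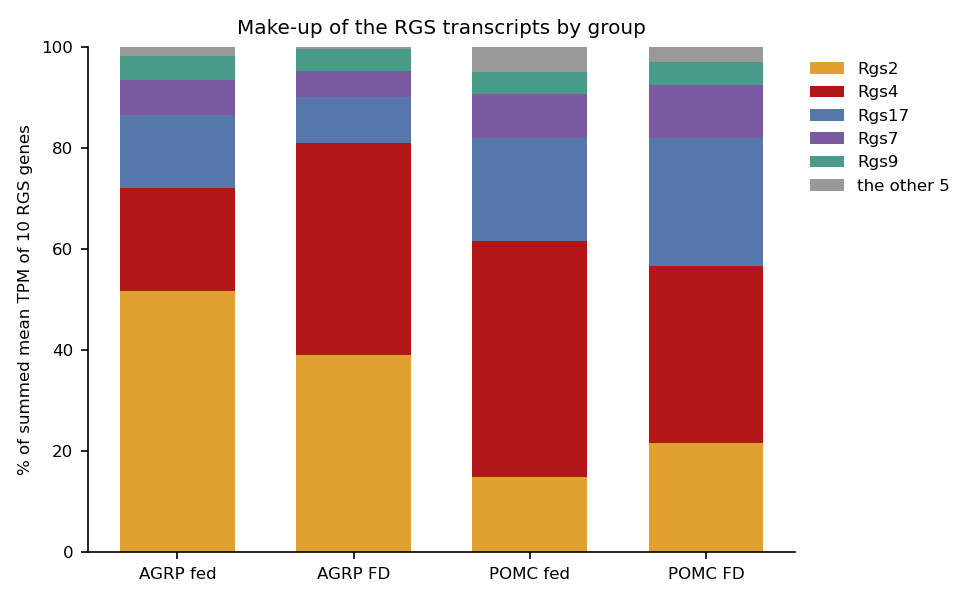
Share of each gene in the summed mean TPM of the 10 RGS genes (stacked bars, %) in the 4 groups. Rgs2 is the largest part in fed AGRP neurons at 51.8%, and Rgs4 takes 20.4% there and 41.9% in FD AGRP neurons.

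Which RGS genes changed with food deprivation was tested in each cell type with edgeR's quasi-likelihood test, with q the adjusted p over all 16513 genes tested. The 9 members other than Rgs6 were named with earlier results of these data known. Of these 9, 2 passed q under 0.05 in AGRP neurons, as did 10.3% of all genes tested: Rgs4 rose and Rgs16 fell. In POMC neurons 0 of these 9 passed, where 0.375% of all genes did, and 0 of the 9 were free of overlap between FD and fed libraries, against 2.35% of all genes. At an unadjusted p under 0.05 there were 2 in POMC neurons, Rgs2 and Rgs10, of which DESeq2 called 1, Rgs10 (q = 0.00554), and limma-voom 0. The median log2 fold change of the 9 members in AGRP neurons was -0.06 against -0.02 over all genes tested, and in POMC neurons 0.18 against -0.02.

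Rgs4, a small R4 protein that acts on Gi/o and Gq and is prominent in brain, had 286, 259, 204, 388 and 508 TPM in the fed AGRP libraries. In the 6 FD AGRP libraries the lowest value was 677, the median 832 and the highest 1125 TPM. Every FD library was above every fed library, as was the case in either direction for 7.65% of all genes tested. The log2 fold change was 1.66 ± 0.22 (SE), a 3.17-fold rise with q = 5.71e-06. In POMC neurons Rgs4 had 270, 277, 332, 361 and 468 TPM when fed and 275, 338, 362, 179 and 206 TPM when FD. These overlapped, and the log2 fold change was -0.43 ± 0.22 (q = 0.441), with a 95% interval of -0.86 to 0.0015. The AGRP and POMC changes differed, by 2.1 ± 0.31 on the log2 scale (q = 6.69e-05 for the interaction), and Rgs4 was the 1 of the 9 members with a tested difference, where 6.71% of all genes had one.

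The rise of Rgs4 in AGRP neurons was seen in each of the 3 sets of libraries that shared a spike-in volume rule. It was 2.28 in log2 CPM for 10 µl (2 FD and 2 fed), 2.28 for 1 µl (1 and 1) and 0.94 where the volume followed the cell number (3 and 2), a set that held all AGRP mice under 50 days of age. The labels gave volumes but not the rule behind them, so the sets were inferred from volume and cell number. AGRP FD library 2, with 50 cells and 1 µl, fits 2 of the sets and was placed in the cell number set. With library sizes taken from spike-in counts and sorted cells in place of TMM scaling, the log2 fold change was 1.08 ± 0.76 with q = 1, that of the interaction was 2.44 with q = 0.428, and 97 of all genes tested passed in AGRP neurons instead of 1700.

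**Figure D3:**
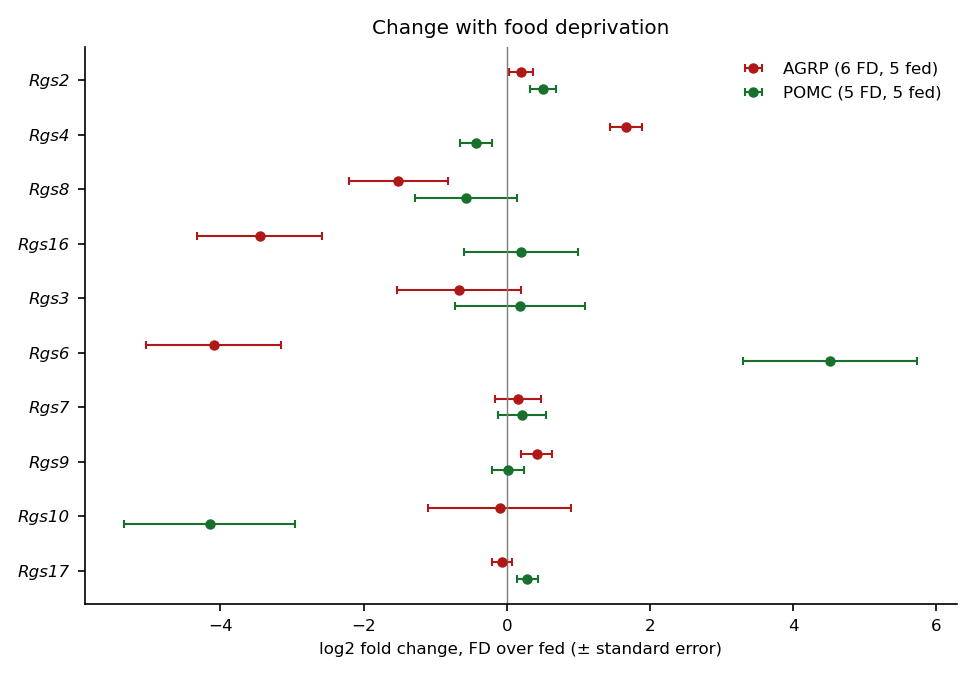
Log2 fold change of FD over fed for the 10 RGS genes (points, horizontal axis) in AGRP neurons (red) and POMC neurons (green), with standard errors as bars. Rgs4 is at 1.66 in AGRP and -0.43 in POMC neurons, Rgs16 at -3.45 and 0.20, and Rgs6, picked for its AGRP value, at -4.09 in AGRP neurons. The POMC point of Rgs6 sets the FD libraries against 2 counts in all fed libraries and is no measure of a fold.

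Rgs16, an R4 protein whose transcript is induced in many tissues by receptor signals, was scarce in AGRP neurons and fell to the floor. The fed AGRP libraries held 8, 35, 22, 33 and 9 counts (0.575, 2.69, 2.04, 2.39 and 0.717 TPM) and the FD libraries 7, 1, 0, 2, 0 and 1. The 5 lowest FD libraries were at or under the floor, and the FD library with 7 counts (0.580 TPM) lay within the fed range. The log2 fold change was -3.45 ± 0.87 (q = 0.00915), and it was -3.93, -4.13 and -3.21 in log2 CPM within the 1 µl, 10 µl and cell number sets. With only the fed and FD AGRP libraries in the fit q was 0.103, and with spike-in scaling 0.569. POMC neurons held 3.74, 3.72, 22.3, 12.6 and 5.62 TPM when fed and 6.24, 9.34, 18.8, 9.68 and 13.5 TPM when FD, and the log2 fold change was 0.20 ± 0.80 (q = 0.962). The difference between the AGRP and POMC changes, -3.65 ± 1.17, missed the threshold (q = 0.0559), and passed without FD AGRP library 1 (-4.86, q = 0.00821) or without fed POMC library 3 (-4.18, q = 0.0442). It also passed with DESeq2 (-3.77, q = 0.00866) and when blocked by age cohort (-3.85, q = 0.0491).

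Rgs8, the R4 neighbour of Rgs16, had 3.31, 5.07, 8.47, 6.46 and 11.2 TPM in fed AGRP libraries and 0.736, 8.90, 0.900, 0.269, 0.017 and 0.811 TPM in FD libraries. The other FD libraries lay below the lowest fed library, while FD library 2 lay within the fed range. FD library 5, at 0.017 TPM, held 1 count and was under the floor. The log2 fold change was -1.52 ± 0.69 and did not pass (q = 0.185). Without FD library 2 it was -3.49 with q = 7.42e-05, and it passed with limma-voom (-3.32, q = 0.00585), with the age cohort as a block (-2.55, q = 0.0175) and with the sorted cell number in the model (-3.20, q = 0.0128). POMC neurons held 6.59 to 26.9 TPM when fed and 7.36 to 13.2 TPM when FD (log2 fold change -0.57 ± 0.71, q = 0.832). The AGRP and POMC changes of Rgs8 differed by -0.95 ± 0.99 (q = 0.659), and by -2.92 (q = 0.0110) without FD AGRP library 2.

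Rgs2, which favours Gq among the R4 proteins, did not pass in either cell type with deprivation. Fed AGRP libraries were closely grouped at 845, 849, 863, 776 and 846 TPM, and the FD libraries ran from 610 to 987 TPM with a median of 801. The log2 fold change was 0.20 ± 0.17 (q = 0.559, 95% interval -0.14 to 0.54). In POMC neurons Rgs2 had 97.8, 95.7, 148, 114 and 89.0 TPM when fed and 104, 135, 153, 194 and 252 TPM when FD, with a log2 fold change of 0.51 ± 0.18 and q = 0.205. The 3 highest FD values lay above all fed values, and the groups overlapped. Rgs3, an R4 gene with a longer protein, stayed at or under 3.01 TPM in all libraries, with log2 fold changes of -0.67 ± 0.86 in AGRP (q = 0.726) and 0.18 ± 0.90 in POMC neurons (q = 0.971).

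Among the R7 genes, Rgs6 had 9.47, 7.95, 14.97, 9.02 and 11.2 TPM in fed AGRP libraries (305 to 476 counts). The FD AGRP libraries had 0.589, 0.183, 0.398, 0.067, 0.066 and 2.00 TPM (3 to 59 counts), and the sixth, with 59 counts, was the highest. The groups did not overlap and the log2 fold change was -4.09, but Rgs6 was chosen for these values, so neither is a test. In POMC libraries Rgs6 had 0, 1, 1, 0 and 0 counts when fed and 0, 0, 37, 4 and 10 counts when FD. Of the FD POMC libraries 3 of 5 were above the floor, and the fed and FD libraries overlapped. Rgs7, a regulator of Gi/o signals that is widespread in central neurons, held 81.2 to 152 TPM in fed and 31.8 to 172 TPM in FD AGRP libraries (log2 fold change 0.15 ± 0.32, q = 0.844, 95% interval -0.48 to 0.78). In POMC libraries it held 56.0 to 66.9 TPM when fed and 40.2 to 150 TPM when FD, with q = 0.873. Rgs9, known for its part in striatal dopamine and opioid receptor signalling, held 55.6 to 107 TPM in fed and 49.3 to 131 TPM in FD AGRP libraries (log2 fold change 0.42 ± 0.21, q = 0.252) and did not pass in POMC neurons (0.02 ± 0.22, q = 0.989).

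Rgs10, a short protein built of little more than the RGS domain, is also a gene of microglia. Its POMC libraries held 16.7, 8.47, 18.7, 11.2 and 0.589 TPM when fed (99, 71, 126, 57 and 3 counts) and 0, 0.368, 1.93, 0.757 and 0.275 TPM when FD (0, 2, 12, 2 and 1 counts). Of the 5 fed libraries 4 were above all FD libraries and the fifth was among them. The log2 fold change was -4.15 ± 1.19 with q = 0.108. The 4 microglia markers summed to 0.070 to 10.7 TPM in fed and 0.647 to 7.68 TPM in FD POMC libraries. Aif1 ran from 0 to 10.7 TPM in fed and from 0.481 to 7.68 TPM in FD POMC libraries. C1qa was at 0 throughout, Cx3cr1 at most 0.185 TPM and Csf1r at most 0.389 TPM there. The part of these 4 markers in the Rgs10 values was not tested. In AGRP neurons Rgs10 had 2.31 to 17.6 TPM when fed and 0.793 to 18.1 TPM when FD (q = 0.976). The difference between the AGRP and POMC changes of Rgs10 passed with DESeq2 (4.07, q = 0.0337) and not with edgeR. Rgs17, an RZ protein that acts on Gi/o and Gz and also regulates opioid receptors, held 203 to 277 TPM in fed and 158 to 228 TPM in FD AGRP libraries. After TMM scaling of the counts its log2 fold change there was -0.06 ± 0.14 (q = 0.851, 95% interval -0.34 to 0.21), and in POMC neurons it was 0.29 ± 0.15 (q = 0.445).

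The second question was which RGS genes differ between the cell types. In fed mice 2 of the 9 members other than Rgs6 passed, Rgs2 and Rgs9, both higher in AGRP neurons, where 7.57% of all genes passed in either direction. In FD mice 6 of the 9 passed, where 18.6% of all genes did. Rgs2, Rgs4, Rgs9 and Rgs10 were higher and Rgs8 and Rgs16 lower in AGRP neurons. The FD comparison shares its AGRP libraries with the deprivation comparison, so the values for Rgs4 and Rgs16 in both rest in part on the same libraries. The groups did not overlap for Rgs2, Rgs7, Rgs9 and Rgs16 in fed mice (8.93% of all genes tested) and for Rgs2, Rgs4, Rgs9 and Rgs16 in FD mice (11.4%).

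Rgs2 was 6.78-fold higher in AGRP than in POMC neurons of fed mice (log2 2.76 ± 0.19, q = 6.26e-12) and 5.48-fold higher in FD mice (log2 2.45 ± 0.19, q = 2.92e-11). Its lowest AGRP library, at 610 TPM, was above its highest POMC library, at 252 TPM. Rgs9 was 2.13-fold higher in fed (log2 1.09 ± 0.22, q = 0.00127) and 2.80-fold higher in FD mice (log2 1.49 ± 0.22, q = 7.29e-06), at 26.3 to 46.6 TPM over all POMC libraries. With spike-in scaling Rgs9 in fed mice had q = 1, while Rgs2 in both states and Rgs4, Rgs9 and Rgs16 in FD mice still passed. Rgs4 did not pass in fed mice (log2 -0.22 ± 0.22, q = 0.669, 95% interval -0.65 to 0.21) and was 3.66-fold higher in AGRP neurons of FD mice (log2 1.87 ± 0.22, q = 1.86e-07).

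Rgs16 was the member with the largest tested difference in the other direction. In FD mice its log2 fold change of AGRP over POMC neurons was -6.27 ± 0.96 (q = 1.15e-05), with 0 to 7 counts in AGRP libraries against 68 to 311 in POMC libraries. In fed mice it was -2.61 ± 0.85 with q = 0.0572 (0.0410 with limma-voom, 0.00426 with DESeq2 and 0.0396 with the fed groups alone), and the 5 AGRP libraries at 0.575 to 2.69 TPM were all below the 5 POMC libraries at 3.72 to 22.3 TPM. Rgs8 was lower in FD AGRP than in FD POMC neurons (log2 -2.08 ± 0.70, q = 0.0354), and Rgs10 was higher (log2 3.37 ± 1.14, q = 0.0359). These 2 calls were the least steady, as each was lost in 6 of the 11 fits that left out 1 library, where q reached 0.0727 for Rgs8 and 0.0831 for Rgs10. For Rgs8 these were AGRP FD libraries 1, 3, 4 and 6 and POMC FD libraries 1 and 5, and for Rgs10 AGRP FD libraries 1 and 6 and POMC FD libraries 1, 2, 4 and 5. Rgs10 was also lost in 7 of 10 other settings and Rgs8 in 3 of 10. Over the 11 fits that left out 1 library, Rgs8 ran from -4.05 to -1.82 in log2, with q from 2.69e-06 to 0.0727. Rgs10 ran from 2.855 to 4.35, with q from 0.02045 to 0.0831.

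Rgs17 (0.46 ± 0.15, q = 0.0515), Rgs7 (0.61 ± 0.34, q = 0.342), Rgs3 (0.16 ± 0.90, q = 0.958), Rgs8 (-1.13 ± 0.72, q = 0.436) and Rgs10 (-0.68 ± 1.04, q = 0.807) did not pass in fed mice, values being log2 fold changes of AGRP over POMC. Rgs17 passed without fed AGRP library 1 (q = 0.0394), fed POMC library 1 (q = 0.0163) or fed POMC library 4 (q = 0.0497). It also passed with limma-voom (q = 0.0202), with DESeq2 (q = 0.0204), with RLE scaling (q = 0.0403) and with the sorted cell number in the model (q = 0.0491). Rgs6, picked for it, had 305 to 476 counts in fed AGRP and 0 to 1 in fed POMC libraries, a contrast for which no fold is given. In FD mice it had 3 to 59 counts in AGRP and 0 to 37 in POMC libraries, and these overlapped.

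**Figure D4:**
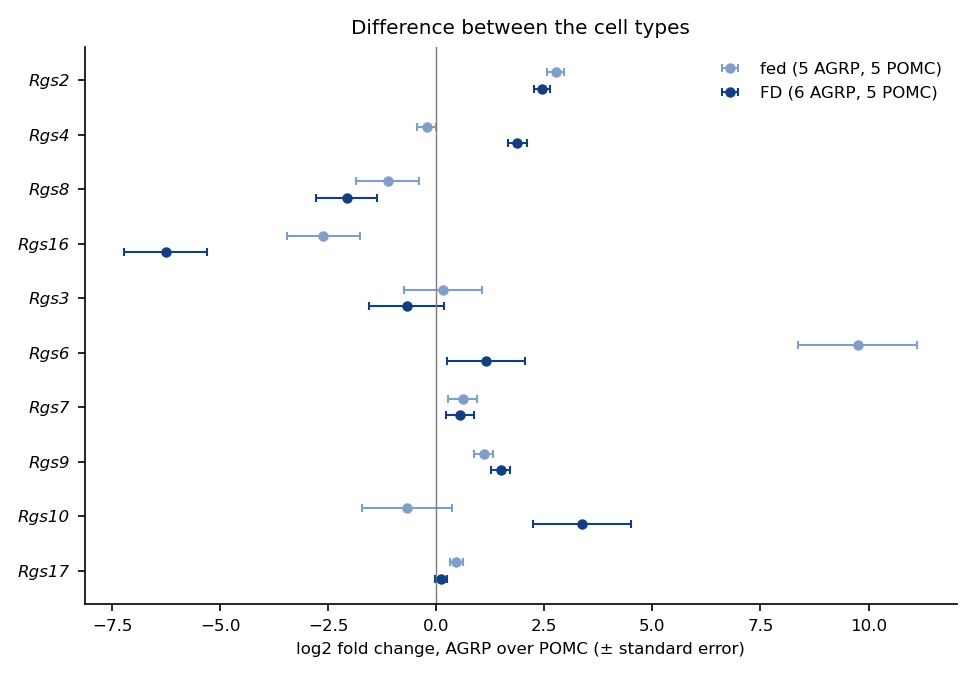
Log2 fold change of AGRP over POMC neurons for the 10 RGS genes (points, horizontal axis) in fed mice (light blue) and FD mice (dark blue), with standard errors as bars. Rgs2 lies at 2.76 and 2.45 and Rgs9 at 1.09 and 1.49, while Rgs4 is at -0.22 in fed and 1.87 in FD mice. The fed Rgs6 point, at 9.75, sets a gene against 2 counts in all fed POMC libraries and is no measure of a fold.

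The genes with the pattern most like that of Rgs6 were found as the 5 smallest root mean square differences of log2 CPM over the 21 libraries, each gene centred on its mean, among 16512 others. These were Crhr1, a receptor for corticotropin releasing hormone (1.92), an unnamed clone-based gene model (1.92), Gbp4 (1.93), Htr1f, a Gi-coupled serotonin receptor (1.98), and B4galnt3 (2.00). Crhr1 had 29.4 ± 7.09 TPM in fed and 14.3 ± 9.66 TPM in FD AGRP neurons, and 0.0952 ± 0.185 and 0.951 ± 1.23 TPM in fed and FD POMC neurons. Htr1f had 5.96 ± 4.25 TPM in fed and 0.293 ± 0.614 TPM in FD AGRP neurons and was at 0 in all POMC libraries. The list depended on low values, since 3 of the 5 stayed with a prior count of 2 and 1 of the 5, Crhr1, when genes had to exceed 20 CPM on average in a group.

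Partners of the R7 proteins were measured alongside. Gnb5 binds and stabilises all R7 proteins, Rgs7bp and Rgs9bp tie them to the membrane, and Gpr158 and Gpr179 are orphan receptors that recruit them. Of these 5 genes 4 were tested and 3 changed in FD AGRP neurons, Gpr158 upward and Rgs7bp and Gpr179 downward, where 10.3% of all genes passed, and 0 passed in POMC neurons by edgeR, limma-voom or DESeq2. At an unadjusted p under 0.05 there was 1 in POMC neurons, Gpr179 (0.65 ± 0.31, q = 0.387). Rgs7bp had 18.7, 28.3, 25.0, 17.1 and 26.8 TPM in fed AGRP libraries, and in FD libraries the lowest value was 1.10, the median 5.16 and the highest 9.77 TPM. The groups did not overlap, and the log2 fold change was -1.93 ± 0.42 (q = 0.00225). Gpr158 had 72.6 to 106 TPM in fed and 102 to 186 TPM in FD AGRP libraries (log2 1.01 ± 0.16, q = 7.33e-05). Gpr179 had 19.4 to 33.2 TPM in fed and 5.50 to 22.3 TPM in FD libraries (log2 -0.96 ± 0.29, q = 0.0313), a call lost in 6 of the 11 fits that left out 1 library (FD libraries 2, 4 and 5 and fed libraries 1, 4 and 5), with q up to 0.0792. Gnb5 did not pass (0.45 ± 0.38, q = 0.543) and had 60.1 to 133 TPM in fed and 76.1 to 124 TPM in FD AGRP libraries. In the interaction test, passed by 6.71% of all genes, the AGRP change differed from the POMC change for Rgs7bp (-2.34 ± 0.60, q = 0.0146), Gpr158 (1.00 ± 0.23, q = 0.00672) and Gpr179 (-1.61 ± 0.42, q = 0.0179). With spike-in scaling none of these 3 genes passed in AGRP neurons, with q of 0.308 for Rgs7bp and 1 for the others, nor in the interaction, with q of 0.663 for Rgs7bp, 0.565 for Gpr158 and 0.801 for Gpr179. In the cell type comparison of fed mice 0 of the 4 passed with edgeR, limma-voom or DESeq2, and 3, Gnb5, Rgs7bp and Gpr158, had an unadjusted p under 0.05 in edgeR. In FD mice 4 of the 4 passed, where 18.6% of all genes did. Gnb5 (1.58 ± 0.39, q = 0.00394) and Gpr158 (0.53 ± 0.16, q = 0.0171) were higher and Rgs7bp (-1.40 ± 0.41, q = 0.0150) and Gpr179 (-1.34 ± 0.29, q = 0.00115) lower in AGRP neurons. Without POMC FD library 4 the q of Gpr158 was 0.0566, and without POMC FD library 5 that of Rgs7bp was 0.0692. With spike-in scaling the FD q was 0.748 for Rgs7bp, 0.165 for Gpr158 and 0.907 for Gpr179, and the sign of Gpr179 turned (0.15).

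**Figure D5:**
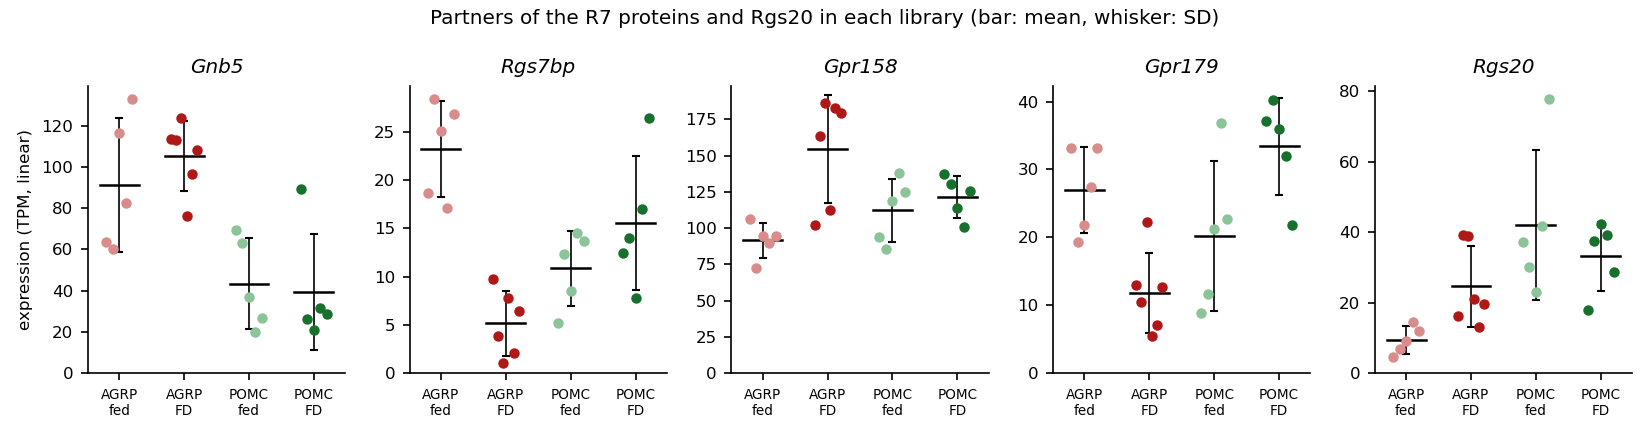
Deposited expression (TPM, linear axes that differ between panels) of Gnb5, Rgs7bp, Gpr158, Gpr179 and the RGS gene Rgs20 in each library of the 4 groups, with the mean as a bar and the SD as a whisker. Rgs7bp lies at 17.1 to 28.3 TPM in fed and 1.10 to 9.77 TPM in FD AGRP libraries, and Rgs20 at 4.75 to 14.5 and 13.0 to 39.4 TPM.

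Of the other 11 numbered RGS genes 7 were tested, and 1, Rgs20, passed in AGRP neurons with deprivation, where 10.3% of all genes did. Rgs20, an RZ relative of Rgs17 that prefers Gz, had 4.75, 7.01, 9.07, 14.5 and 12.1 TPM in fed and 13.0 to 39.4 TPM in FD AGRP libraries, with a median of 20.4. It rose by 1.65 ± 0.39 in log2 (q = 0.00526), the change differed from that in POMC neurons (2.1 ± 0.55, q = 0.0173), and it was lower in AGRP than in POMC neurons of fed mice (-2.32 ± 0.41, q = 0.000209), where it had 42.0 ± 21.2 TPM (SD, n = 5). With spike-in scaling the AGRP rise was 1.59 with q = 0.807, and q was 0.313 for the interaction and 0.458 for the fed difference of the cell types. The interaction also missed the threshold with limma-voom (q = 0.0514) and with the sorted cell number in the model (q = 0.0538). Rgs13, Rgs18 and Rgs21 were listed at 0 on average in all 4 groups, and Rgs11 and Rgs19 had group means of 13.5 to 27.6 and 31.2 to 56.7 TPM.

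Of 9 Gi/o and Gq alpha subunit genes, the substrates of RGS proteins, 8 were tested. With deprivation 1 of the 8 passed in AGRP neurons, where 10.3% of all genes did, and 2 of the 8 differed between the cell types in each diet, against 7.57% of all genes in fed and 18.6% in FD mice. Gnai1 fell in FD AGRP neurons (log2 -0.49 ± 0.14, q = 0.0243), from 205 to 345 TPM in fed to 115 to 181 TPM in FD libraries, and its q was 0.0545, 0.0577 and 0.131 without FD library 4, FD library 5 and fed library 5. Gnai1 was lower in AGRP than in POMC neurons when fed (-1.28 ± 0.15, q = 3.25e-07) and FD (-1.75 ± 0.14, q = 1.46e-10), and so was Gnaz, which encodes the substrate favoured by Rgs17 and Rgs20 (-0.68 ± 0.15, q = 0.00265, and -0.89 ± 0.14, q = 2.14e-05). With spike-in scaling these calls were lost: q was 1 for Gnai1 with deprivation, 1 and 0.597 for its fed and FD differences, and 1 for the fed difference of Gnaz, whose FD difference was 0.23 with q = 0.841. The Gnai1 change with deprivation also missed with the fed and FD AGRP libraries alone (q = 0.0600). Of 15 other genes for proteins with an RGS homology domain 13 were tested. With deprivation 0 of the 13 passed edgeR in either cell type, where 10.3% (AGRP) and 0.375% (POMC) of all genes did. At an unadjusted p under 0.05 there was 1 in AGRP (Axin1, also called by DESeq2) and 1 in POMC neurons (Grk5). Between the cell types 1 of the 13 passed in fed mice, where 7.57% of all genes did, and 0 in FD mice, where 18.6% did. The 1 in fed mice, the receptor kinase gene Adrbk2, was higher in AGRP neurons (0.93 ± 0.24, q = 0.0118), with q = 1 under spike-in scaling.

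GIRK channels are potassium channels opened by Gi/o-coupled receptors, and R7 proteins speed their closing. By edgeR 0 of their 4 subunit genes passed with deprivation in AGRP or POMC neurons, where 10.3% and 0.375% of all genes did. At an unadjusted p under 0.05 there were 2 of the 4 in AGRP neurons, Kcnj3 and Kcnj5, and 0 in POMC neurons. DESeq2 called 0 and limma-voom 1, Kcnj5 in AGRP neurons. Between the cell types 2 of the 4 passed in fed and 3 in FD mice, against 7.57% and 18.6% of all genes. Kcnj5 was higher in AGRP than in POMC neurons (log2 1.75 ± 0.36, q = 0.00138 when fed and 3.25 ± 0.38, q = 1.37e-07 when FD). Kcnj3 was lower (-1.34 ± 0.33, q = 0.00872 and -2.61 ± 0.33, q = 4.47e-07), and Kcnj9 was higher in FD mice (0.85 ± 0.24, q = 0.0128). With spike-in scaling Kcnj5 in FD mice still passed, while q was 0.181 for Kcnj5 and 0.890 for Kcnj3 in fed mice and 0.119 for Kcnj3 and 0.121 for Kcnj9 in FD mice. That scaling moved the median of all genes to 1.10 in AGRP over POMC neurons of FD mice.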

How the data were processed

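RNA-Seq of sorted AGRP and POMC neurons was analysed in 21 libraries of 4 groups, taken from the sample labels, 1 mouse each. The authors trimmed reads with cutadapt 1.7.1, removed abundant sequences with Bowtie2 2.1.0, mapped to mm10 with STAR 2.4.0i and made the deposited counts per gene with HTSeq 0.6.1p1, without strand and without normalization. The authors derived the deposited TPM from these counts and exon lengths. The 5 summary entries (25.5 to 53.1% of all counts) and 92 ERCC entries (0.125 to 13.5%) were kept out of library sizes and tests.

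Genes with CPM over 1 in at least 3 libraries were kept (16513), scaled by TMM and fitted together with edgeR 4.0.16 (R 4.3.3), quasi-likelihood test, two-sided, Benjamini-Hochberg adjustment over all genes (q, threshold 0.05). Fold changes rest on these scaled counts and can differ from ratios of TPM, for small changes also in sign. In AGRP neurons the mean TPM of Rgs2 was 836 fed and 807 FD, with a log2 fold change of 0.20. That of Rgs7 was 111 and 107 (0.15), and that of Rgs17 was 232 and 188 (-0.06). Intervals are normal approximations from the SE. Libraries come from separate mice, so the tests measure the spread between mice. The filter and scaling follow the paper's methods, and limma-voom (limma 3.58.1), used there, was an alternative, as was DESeq2 1.42.0. Others were RLE scaling, ERCC library sizes (spike counts per µl times sorted cells), no count filter, 2 groups alone, blocks for replicate number, spike-in set or age, a covariate for sorted cells, criteria of fold and level, and each library left out. The 1 µl spike-in set alone and values within spike-in sets were added after the data were seen. Code was tested on simulated counts. Python 3.11.15 with pandas 2.3.3 and numpy 2.4.6 was used.

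The members and lists were chosen with earlier results of these data known. Named genes were all 10 members, of each list at most 4 genes per comparison with q under 0.05, and the 5 genes nearest to Rgs6; Rgs11, Rgs13, Rgs18, Rgs19, Rgs21, Axin1 and Grk5 were named after their values were seen. Gene positions are from the authors' tables (1 added to starts, which count from 0), overlaps from GENCODE M21 and promoter windows from RefSeq GRCm38.p6. Protein sequences were not analysed here.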

Additional observations from a re-analysis of the deposited data

Results flagged for a closer look

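In 6 of 40 combinations of member and group, 1 library stood apart from the others by Dixon's criterion on linear TPM. By chance about 1 in 20 would do so if values were normally distributed. Whether that holds for these TPM, some near 0, was not tested, so the 6 are not set against that rate. AGRP fed library 4 had 775.9 TPM of Rgs2 (nearest 844.8), and POMC fed library 3 had 3.009 TPM of Rgs3 (nearest 0.576) and 55.97 TPM of Rgs7 (nearest 64.39). Among FD AGRP libraries, library 6 had 2.002 TPM of Rgs6 (nearest 0.589), library 2 had 8.904 TPM of Rgs8 (nearest 0.9) and library 1 had 0.580 TPM of Rgs16 (nearest 0.1).

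The change with deprivation differed between AGRP and POMC neurons, by the interaction test of edgeR, for Rgs4 by 2.1, for Rgs20 by 2.1, for Gpr158 by 1.00, for Rgs7bp by -2.34 and for Gpr179 by -1.61 on the log2 scale. Rgs4 came from the 9 members, Rgs20 from 7 other RGS genes tested and the rest from 4 partners tested. Of the G alpha, RGS homology domain and GIRK genes (8, 13 and 4 tested) 0 passed, and of all genes 6.71% did. With spike-in scaling none of the 5 passed (Rgs4 2.44, q = 0.428), and Rgs20 also missed with limma-voom (q = 0.0514) and with the sorted cells as a covariate (q = 0.0538).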

How the results depend on the processing

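Over the settings other than leaving out a library, 653 of 733 values of single genes kept direction and side of the threshold, as did 871 of 928 with 1 library left out. Rgs6, which had no test, is included. Its values counted as kept where direction held and the shift was under the SD of its log2 CPM within a group. The count of members passing in AGRP FD against fed (2) was 0 with ERCC scaling, 1 with 2 groups alone and 1 with the fold and level criteria. The same count was 3 with limma-voom, with the age cohort block, with the sorted cells covariate and without AGRP FD library 2. In POMC neurons (0) it was 1 with DESeq2. In fed AGRP against POMC (2) it was 4 with limma-voom, 4 with DESeq2 and 1 with ERCC scaling. Other settings with a further call there were those given above for Rgs16 and Rgs17. For the interaction (1) it was 3 with DESeq2, 0 with ERCC scaling and 2 with the age cohort block, and 1 to 2 with a library left out (2 without AGRP FD 1, AGRP FD 2 or POMC fed 3). Of the 5 genes nearest to Rgs6, 3 stayed with a prior count of 2 and 1 with the level filter. The causes were not tested.

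ERCC scaling moved the median over all tested genes to a log2 fold change of -1.11 in POMC FD against fed, 1.10 in AGRP against POMC of FD mice and 1.04 in the interaction. It turned the sign of Rgs2 (-0.71), Rgs3 (-0.51), Rgs7 (-0.97), Rgs9 (-0.93), Rgs16 (-0.46) and Rgs17 (-0.79) in the first, of Rgs3 (0.22), Gpr179 (0.15) and Gnaz (0.23) in the second, of Rgs2 (0.97), Rgs7 (1.27) and Rgs17 (0.79) in the third, and of Rgs4 in fed AGRP against POMC (0.20). Rgs4 in the interaction was 2.44. Other reversals were of values that did not pass: in AGRP FD against fed, Rgs7 with limma-voom (-0.10) and with sorted cells (-0.0270), and Rgs10 with sorted cells (0.54). In POMC neurons they were Rgs9 with the spike-in set block (-0.007335) and Rgs16 in the 1 µl set alone (-0.25, chosen after seeing the data).

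With a library left out, AGRP FD against fed ranged from -0.0390 to 0.33 for Rgs7, -0.61 to 0.41 for Rgs10 and -0.13 to 0.0369 for Rgs17. POMC FD against fed ranged from -0.34 to 1.19 for Rgs3, -0.15 to 0.39 for Rgs7, -0.0832 to 0.14 for Rgs9 and -0.0506 to 0.74 for Rgs16. Rgs3 in fed AGRP against POMC ranged from -0.12 to 1.16, and Rgs7 in the interaction from -0.26 to 0.30. Same-numbered libraries come from different mice and did not deviate together (0 of 20 pairs with r over 0.1). With the replicate block, Rgs9 in POMC neurons was -0.0124, Gpr179 and Gnai1 in AGRP FD against fed had q = 0.0509 and 0.0817, and Gpr158 and Rgs10 in AGRP against POMC of FD mice q = 0.0608 and 0.141. Rgs6 and Rgs10 in POMC and Rgs6, Rgs8 and Rgs16 in FD AGRP neurons had libraries at or under 3 counts, where a lower level was not detectable at this depth.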
